A study of Mus musculus with 18 samples.

Results

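The hepatic response to myocardial infarction (MI) was compared between 2 times in mice whose hepatocytes carried an intact mineralocorticoid receptor (MR). The early response was the difference between MI and sham livers 12 h after the operation in C57 mice. The later response was the same difference 1 day after the operation in littermate controls (LC), which carry the floxed MR gene without Cre recombinase and were bred as controls for mice lacking MR in hepatocytes (HMRKO). MI was made by tying off the left anterior descending artery for good, and sham mice were operated on without the ligation. There were 3 livers in each of the 4 groups, so 12 of the 18 libraries of the series were used, and the 6 HMRKO libraries entered the filter on low counts, the scaling and the spread of the 1 day fit and of the joint fit of both times. By the methods of the study MI was made in male mice. The labels of all 12, LC mice included, give the strain as C57BL/6, the genotype as wild type and the age as postnatal week 12. All genes that could be tested at both times were taken. The early experiment lists 17127 genes and the later one 50600, 16461 symbols were unique in both, and 11532 of these genes passed the filter on low counts at both times. A gene was called at one time when its adjusted p was below 0.05 and its log2 change beyond 1 in either direction. Log2 changes are given ± a standard error (SE, 3 livers a group). This SE was derived from the change and its test statistic, so it rests on the spread estimated in the whole fit.

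The liver answers an infarct of the heart through hormones, cytokines and the nervous system. Interleukin-6 acts on hepatocytes through STAT3 and induces acute phase proteins, such as serum amyloid A and fibrinogen, whose mass synthesis loads the endoplasmic reticulum. Glucocorticoids, fasting and sympathetic tone act on the same cells and move genes of amino acid breakdown, lipid storage and the circadian clock. Fibroblast growth factor 21, a hormone secreted by hepatocytes, was the factor of interest in the study, in which the 12 h livers were sequenced to look for signals upstream of MR.

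The 12 h libraries differed in depth along the lines of the groups. Their totals were 1361564 to 2255837 counts in the 3 sham livers and 16745688 to 19190438 in the 3 MI livers, a ratio of 9.60 between the group means, whereas the 6 LC libraries at 1 day held 23438424 to 28001094 counts with a ratio of 0.971. The correlation of log2 CPM (counts scaled to one total per library) between a 12 h sham and a 12 h MI liver was 0.610 to 0.778, and within either group it was 0.950 to 0.983. The predicted gene Gm20594 took 1.79 to 3.66% of the counts of the 12 h sham livers and 0.0167 to 0.0659% of those of the 12 h MI livers. The 12 h change also moved with the length by which the authors scaled each gene, as derived from the deposited estimated counts and FPKM, with a median log2 change of 0.46 in the shortest of 5 classes of genes and -0.22 in the longest, against -0.02 and -0.03 at 1 day. Whatever belongs to these library differences and whatever belongs to the infarct cannot be told apart at 12 h. The 1 day libraries, though even in depth, differed in content. Mitochondrially encoded genes summed to 72737 to 88942 CPM in the LC + sham and 103125 to 222355 CPM in the LC + MI livers. The scaling factor was 0.852 in the first LC + MI library and 1.03 to 1.09 in the other LC libraries. The part of this in the 1 day calls was not tested. The time after MI, the mouse line and the counting of reads also changed together between both experiments, so in a difference between the early and the later response these cannot be told apart. Only changes within one experiment were compared, and no levels were set across them.

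**Figure D1:**
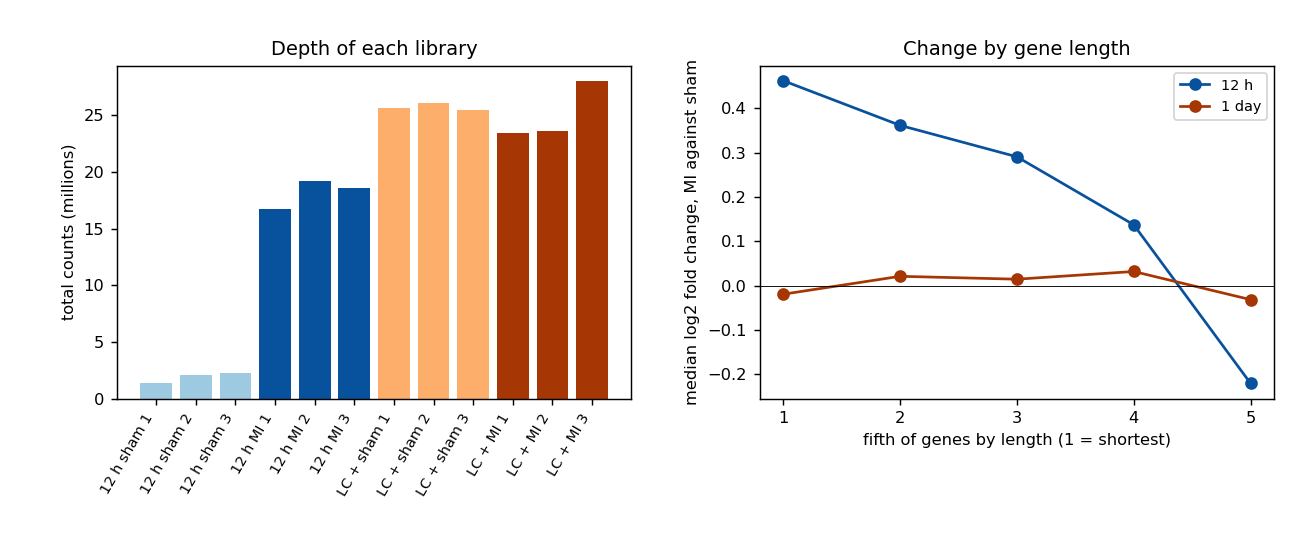
Library totals for each liver (left) and the median log2 change of MI against sham within 5 classes of genes by scaling length (right) at 12 h and 1 day. The 12 h sham libraries hold 1361564 to 2255837 counts against at least 16745688 in each other library shown, and the 12 h medians run from 0.46 to -0.22 with length while the 1 day medians stay between -0.03 and 0.03.

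At 12 h, 5739 of the 11532 genes were called (49.8%), 3097 of them up (26.9% of genes tested) and 2642 down (22.9%). At 1 day 273 genes were called (2.37%), 152 up (1.32%) and 121 down (1.05%), by edgeR's quasi-likelihood test in both experiments. The median size of the log2 change was 1.04 at 12 h and 0.23 at 1 day, with median standard errors of 0.28 and 0.20. On TPM, values that the authors divided by length and scaled to one total, the median 12 h change of all genes was -0.29 instead of 0.21 and the share of 12 h calls that were up was 26.7% instead of 54.0%, so 12 h directions close to these medians depend on the scale. At 1 day the count rested on single livers. It was 431 without the first LC + MI liver, 121 without the second and 125 without the third, and 165 and 169 without the second and the third LC + sham liver.

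The 2 responses were then set side by side gene by gene. Agreeing genes, called at both times in 1 direction, numbered 155 (1.34%), 104 up and 51 down, and reversing genes, called at both times in opposite directions, numbered 15 (0.13%). The agreeing genes made up 56.8% of the 1 day calls and 2.70% of the 12 h calls. Of the genes called up at 1 day 68.4% were also called up at 12 h, set against 26.9% of all genes, and 5.26% were called down. Of those called down at 1 day 42.1% were called down at 12 h, set against 22.9%, and 5.79% were called up. In the other direction, 3.36% of the genes called up at 12 h were also called up at 1 day and 1.93% of those called down at 12 h were called down. Across all 11532 genes, which are not independent replicates and share library effects, Pearson's r between the changes was 0.243 and Spearman's rho was 0.165.

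The difference between the responses was tested directly in a joint fit. It passed for 6872 genes (59.6%), 3945 with the 12 h change above the 1 day change (34.2%) and 2927 below it (25.4%). By this test 4982 genes were called at 12 h, not at 1 day, and differed between the times, 2728 up and 2254 down. The converse class, called at 1 day only with a difference, held 61 genes, 22 up and 39 down, and 29 without the second LC + MI liver, 32 without the third and 33 without the second LC + sham liver. A further 587 genes called at 12 h and 42 called at 1 day were not resolved, since the difference itself did not pass. Of these 42 genes 40 had log2 changes of the same sign at both times, which the selection itself favors, since opposite changes would mostly pass the difference test. Among the agreeing genes the difference passed for 52, of which 51 changed more at 12 h and 1, Serpina6, changed more at 1 day. The agreeing count was 293 without the first LC + MI liver, 71 without the second, 74 without the third and 92 without the third LC + sham liver. The reversing count was 6, 5 and 6 without the second LC + MI, the third LC + MI and the second LC + sham liver. With the 12 MR-intact libraries alone the agreeing count was 101, with 95 genes in common, and the reversing count was 7, with 6 in common. After the 12 h MI libraries had been thinned to the depth of the sham libraries, 119 genes agreed and 117 of these had agreed at full depth, and 15 genes reversed, 12 of which had reversed at full depth. Of the 69 calls at 1 day among the genes named here, 31 held in each fit without 1 LC liver, and with the MR-intact libraries alone 44 held, 24 were lost and 1 had no value. Here and below, a call counts as held when its sign stayed and its adjusted p stayed below 0.05, at any fold change.

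**Figure D2:**
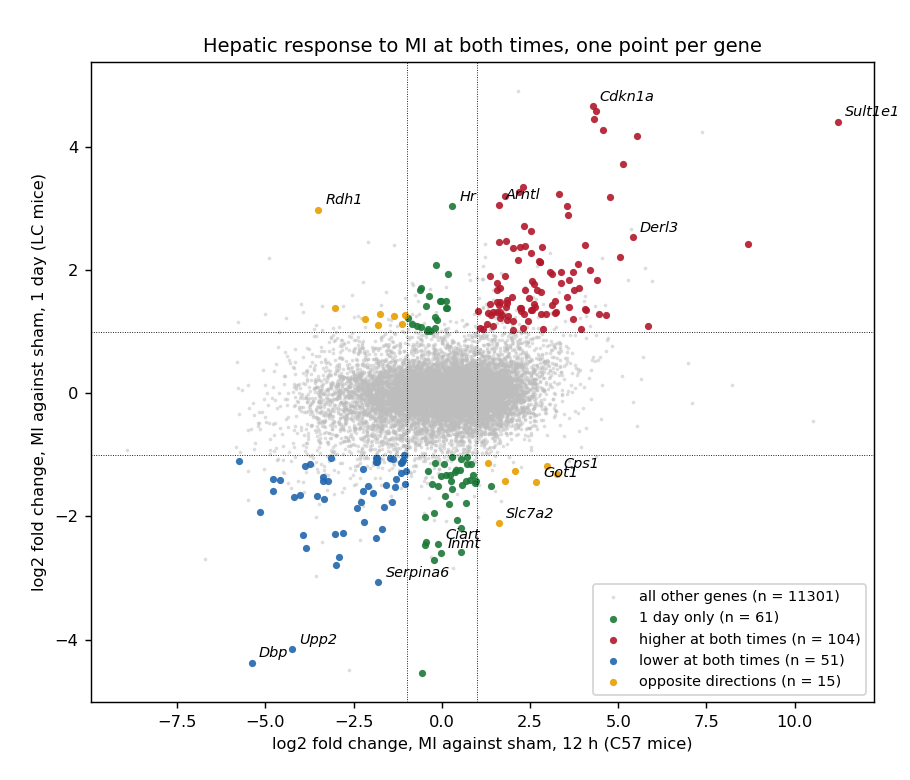
Log2 change of MI against sham at 12 h (horizontal) and at 1 day in LC livers (vertical) for 11532 genes. Agreeing, reversing and 1 day only genes are in colors, and all other genes, those called at 12 h only included, are in grey. Most called genes spread along the horizontal axis, the 155 agreeing genes lie in the upper right and lower left corners, and the 15 reversing genes lie in the other corners; the value of Sult1e1 at 12 h is a fitted one, since it had 0 counts in the sham livers.

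Cdkn1a encodes p21, an inhibitor of the cell cycle, and rose at both times. It was at 15.9, 3.16 and 14.2 CPM in the 12 h sham and 176, 253 and 204 CPM in the 12 h MI livers. At 1 day it was at 1.22, 0.703 and 0.71 CPM in the LC + sham and 15.3, 22.3 and 29.1 CPM in the LC + MI livers. Each MI liver lay above each sham liver at both times. The log2 change was 4.27 ± 0.44 at 12 h (adjusted p = 1.75e-05) and 4.65 ± 0.52 at 1 day (adjusted p = 0.00121), and the difference of -0.37 did not pass (95% interval -1.91 to 1.17). Igdcc4, which encodes an immunoglobulin superfamily membrane protein, was at 1.18, 0.791 and 0.347 CPM in the 12 h sham and 16.1, 24.1 and 11.6 CPM in the 12 h MI livers. At 1 day, Igdcc4 was at 0.251, 0.222 and 0.149 CPM in the LC + sham and 3.96, 4.18 and 4.12 CPM in the LC + MI livers. Its groups did not overlap either, with log2 changes of 4.58 at 12 h and 4.26 at 1 day. Acnat2, a peroxisomal acyl-CoA:amino acid N-acyltransferase, changed by 2.54 ± 0.24 at 12 h (adjusted p = 1.22e-05) and 2.63 ± 0.25 at 1 day (adjusted p = 0.00056) (95% interval of the difference -0.91 to 0.73). For each of these genes the 1 day call held in 6 of 6 fits that left out 1 LC liver. The agreeing, reversing and single-time genes named by rank were chosen without overlap of the livers, so for them this trait is not separate evidence.

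Sult1e1, the estrogen sulfotransferase, had 0 counts in each 12 h sham liver and 22.2, 59.5 and 25.3 CPM in the 12 h MI livers, which was at least 84.5-fold higher when the group of sham livers is set at a floor of 3 counts. At 1 day it was at 0.0718, 0.296 and 0.672 CPM in the LC + sham and 0.801, 9.65 and 11.4 CPM in the LC + MI livers, a log2 change of 4.40 ± 0.81 (adjusted p = 0.012) that did not pass when only the MR-intact libraries were fitted. Fgf21 was at 0, 0.395 and 3.13 CPM in the 12 h sham and 30.5, 14.2 and 24.2 CPM in the 12 h MI livers. In a 12 h sham library, values of about 1 CPM or less are only a few counts. Fgf21, Igdcc4, Slc34a2, Ly6d, Hilpda and Cd14 each had such values there, so the size of their 12 h changes rests on few sham counts. At 1 day Fgf21 was at 0.754, 0.259 and 0.261 CPM in the LC + sham and 1.80, 3.42 and 1.63 CPM in the LC + MI livers. The Fgf21 level of each MI liver was above that of each sham liver at both times, and the log2 change was 4.05 ± 0.61 at 12 h (adjusted p = 0.000199) and 2.40 ± 0.48 at 1 day (adjusted p = 0.0185). The difference of 1.65 did not pass, with a wide interval of -0.42 to 3.72, and the 1 day call held in 3 of 6 fits that left out 1 LC liver. Slc34a2, a sodium-phosphate cotransporter, changed by 3.33 at 12 h and 3.23 at 1 day, and Ly6d, a surface protein of the Ly6 family, by 5.14 at 12 h and 3.72 at 1 day, both from at most 1.39 CPM in each sham liver, and the 12 h call of Slc34a2 was lost without the second 12 h sham liver.

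Genes of fat storage were among the agreeing rises. Cidec, a lipid droplet protein that fuses droplets, was at 2.95, 0.395 and 3.47 CPM in the 12 h sham and 96.6, 32.8 and 54.3 CPM in the 12 h MI livers. At 1 day, Cidec was at 0.826, 1.30 and 3.03 CPM in the LC + sham and 5.46, 27.8 and 13.5 CPM in the LC + MI livers. Every MI liver was above every sham liver at both times, with log2 changes of 4.76 ± 0.56 at 12 h (adjusted p = 4.37e-05) and 3.19 ± 0.58 at 1 day (adjusted p = 0.012). Plin4, a perilipin coating the droplet, changed by 2.77 at 12 h and 2.12 at 1 day and Hilpda, an inhibitor of the lipase ATGL, by 2.23 at 12 h and 1.33 at 1 day. Cd36, the fatty acid translocase, changed by 3.25 at 12 h and 1.32 at 1 day. The 1 day calls of Hilpda and Cd36 each held in 1 of 6 fits without 1 LC liver, and that of Cd36 was lost with the MR-intact libraries alone. The list of 17 lipid droplet genes had 11 members up and 2 down at 12 h and 5 up and 0 down at 1 day at an adjusted p below 0.05, and 4 agreed. On TPM 5 rose and 3 fell at 12 h (median 0.22, against 0.97 on counts). For comparison, 36.3% and 28.5% of all genes passed up and down at 12 h, and 2.73% and 2.61% at 1 day. These shares are the reference for every list given on counts, and the matching shares of all genes on TPM are not given here. Other members of the list differed between the times. Plin5, a perilipin of oxidative tissues, changed by 3.17 at 12 h and 0.74 at 1 day with a difference of 2.42 ± 0.33. Pnpla2, which encodes ATGL, changed by 1.15 at 12 h and -0.31 at 1 day with a difference of 1.46 ± 0.22, and its 12 h call was lost on TPM. Of 26 genes of fatty acid oxidation and ketogenesis 17 rose and 3 fell at 12 h (9 and 5 on TPM), and 4 rose and 1 fell at 1 day. Cpt1a, which admits long-chain fatty acids to mitochondria, changed by 1.96 at 12 h and -0.33 at 1 day, and Acaa2, the mitochondrial 3-ketoacyl-CoA thiolase, by 1.91 at 12 h and -0.32 at 1 day, and neither passed at 1 day. The fatty acid omega-hydroxylases Cyp4a10 and Cyp4a14 were called at both times, with changes of 2.02 at 12 h and 2.35 at 1 day and of 3.55 at 12 h and 3.03 at 1 day. The second 12 h MI liver, with 75.9 and 7.59 CPM, lay below every 12 h sham liver for both genes. The 12 h calls held in 2 of 6 and 3 of 6 fits that left out 1 liver and were lost on TPM, and the 1 day calls held in 4 of 6 and 2 of 6.

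Dbp and Upp2 led the agreeing falls when ranked by the smaller of both changes. Dbp, a clock-controlled transcription factor of the PAR bZIP family, was at 239, 341 and 362 CPM in the 12 h sham and 14.7, 2.76 and 5.04 CPM in the 12 h MI livers. At 1 day Dbp was at 192, 180 and 215 CPM in the LC + sham and 14.5, 7.76 and 6.19 CPM in the LC + MI livers. No sham liver came near an MI liver at either time, and the log2 change was -5.39 ± 0.55 at 12 h (adjusted p = 1.85e-05) and -4.37 ± 0.27 at 1 day (adjusted p = 4.6e-06) with a difference of -1.02 that did not pass (95% interval -2.23 to 0.20). Upp2, the liver uridine phosphorylase and like Dbp an output gene of the clock, was at 272, 465 and 221 CPM in the 12 h sham and 18.4, 8.84 and 22.9 CPM in the 12 h MI livers. It was at 246, 444 and 250.5 CPM in the LC + sham and 30.5, 6.67 and 15.7 CPM in the LC + MI livers. The log2 change of Upp2 was -4.26 ± 0.41 at 12 h (adjusted p = 1.3e-05) and -4.16 ± 0.47 at 1 day (adjusted p = 0.00121), and the difference was -0.10 (95% interval -1.45 to 1.25).

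Further agreeing falls were smaller or less stable at 1 day. Ntrk2, the receptor of brain-derived neurotrophic factor, changed by -3.01 at 12 h and -2.79 at 1 day. It went from 0.703 to 1.51 CPM in the LC + sham livers to at most 0.242 CPM in the LC + MI livers, and the 1 day call held in 0 of 6 fits that left out 1 LC liver. Clec2h, a C-type lectin, changed by -3.93 at 12 h and -2.30 at 1 day and Nrep, an intracellular protein of neuronal regeneration, by -3.85 at 12 h and -2.50 at 1 day. Cnmd, the angiogenesis inhibitor chondromodulin, changed by -2.79 at 12 h and -2.27 at 1 day. Car1, the carbonic anhydrase of red cells, changed by -3.02 at 12 h and -2.29 at 1 day. The summed level of 10 erythroid markers was 309 to 981 CPM in sham and 299.6 to 1119.6 CPM in MI livers at 12 h and 238 to 302 against 147 to 185 CPM at 1 day. Their part in the change of Car1 was not tested. Enho, which encodes the peptide hormone adropin, changed by -2.21 at 12 h and -2.09 at 1 day, and its 1 day call held in 1 of 6 such fits. Serpina6, the corticosteroid-binding globulin of plasma, was at 124, 143 and 152 CPM in the 12 h sham and 33.2, 35.2 and 52.0 CPM in the 12 h MI livers. At 1 day, Serpina6 was at 247, 257 and 196 CPM in the LC + sham and 48.9, 18.5 and 16.2 CPM in the LC + MI livers. Its groups did not overlap at either time, and it changed by -1.80 at 12 h and -3.07 at 1 day. The later fall was larger, with a difference of 1.27 ± 0.50 (adjusted p = 0.0384).

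Reversal was rare, and 3 of the 15 reversing genes belong to the list of 30 genes of amino acid breakdown and the urea cycle. Cps1, the carbamoyl-phosphate synthetase that feeds ammonia into the urea cycle, was at 105, 102 and 65.7 CPM in the 12 h sham and 500, 639 and 1456 CPM in the 12 h MI livers. At 1 day Cps1 was at 644, 1002 and 664 CPM in the LC + sham and 223, 333 and 377 CPM in the LC + MI livers. All MI livers were above all sham livers at 12 h and below them at 1 day. The log2 change was 3.25 ± 0.42 at 12 h (adjusted p = 7.18e-05) and -1.31 ± 0.28 at 1 day (adjusted p = 0.0232), and the difference was 4.56 ± 0.52 (adjusted p = 2.41e-06). Ass1, the argininosuccinate synthetase of the same cycle, was at 653, 684 and 492 CPM in the 12 h sham and 2637, 2149.5 and 2963 CPM in the 12 h MI livers. Ass1 was at 1098, 1328 and 1141 CPM in the LC + sham and 360, 571 and 558 CPM in the LC + MI livers. It too was higher in each MI liver early and lower in each MI liver later, with changes of 2.08 ± 0.27 at 12 h (adjusted p = 6.95e-05) and -1.26 ± 0.24 at 1 day (adjusted p = 0.014) and a difference of 3.34 ± 0.34. The 1 day fall of Ass1 held in 6 of 6 fits without 1 LC liver and that of Cps1 in 3 of 6.

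Got1, the cytosolic aspartate aminotransferase, was at 42.4, 30.4 and 26.8 CPM in the 12 h sham and 212, 148 and 270.4 CPM in the 12 h MI livers. It was at 121, 135 and 56.3 CPM in the LC + sham and 29.6, 44.6 and 40.7 CPM in the LC + MI livers. The third LC + sham liver, with 56.3 CPM, was the lowest sham liver and still above the 3 LC + MI livers. The change of Got1 was 2.67 ± 0.29 at 12 h (adjusted p = 2.32e-05) and -1.44 ± 0.30 at 1 day (adjusted p = 0.0201), and the 1 day call held in 3 of 6 fits without 1 LC liver. Slc7a2, a transporter of arginine and other cationic amino acids, was at 72.5, 72.4 and 49.0 CPM in the 12 h sham and 184, 186 and 223 CPM in the 12 h MI livers. At 1 day, Slc7a2 was at 344, 235 and 274 CPM in the LC + sham and 71.2, 54.4 and 71.8 CPM in the LC + MI livers. It had the largest 1 day fall of the reversing genes that were up at 12 h, -2.11 ± 0.25, against 1.62 ± 0.23 at 12 h, with a 1 day call that held in 6 of 6 fits. The other genes that were up at 12 h and down at 1 day were Ugt2b1, a glucuronosyltransferase (log2 changes of 1.79 at 12 h and -1.42 at 1 day), Gstm3, a glutathione S-transferase (1.32 at 12 h and -1.14 at 1 day), and Gcnt4, a mucin-type glycosyltransferase. Gcnt4 had 2 counts in all 12 h sham livers and 101 in the MI livers, a ratio per effective library size of 8.26 (95% interval 2.23 to 69.2, counting error only), and changed by -1.18 ± 0.29 at 1 day.

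The opposite order, down at 12 h and up at 1 day, was found for 8 genes. Gfod2, an oxidoreductase-like protein, was at 52.4, 63.7 and 50.7 CPM in the 12 h sham and 26.2, 21.1 and 17.8 CPM in the 12 h MI livers. At 1 day, Gfod2 was at 8.03 to 9.62 CPM in the LC + sham and 17 to 26.4 CPM in the LC + MI livers. Its MI livers were all below the sham livers at 12 h and all above them at 1 day, with changes of -1.36 ± 0.21 at 12 h (adjusted p = 0.000234) and 1.25 ± 0.20 at 1 day (adjusted p = 0.00603). Gjc3, a connexin, was at 66.6, 70.0 and 61.5 CPM in the 12 h sham and 11.1, 6.07 and 7.08 CPM in the 12 h MI livers. At 1 day, Gjc3 was at 2.94, 1.15 and 1.23 CPM in the LC + sham and 6.66, 3.22 and 4.08 CPM in the LC + MI livers. Gjc3 changed by -3.03 ± 0.25 at 12 h (adjusted p = 6.56e-06) and 1.38 ± 0.37 at 1 day (adjusted p = 0.0477), and the 1 day call held in 1 of 6 fits that left out 1 LC liver against 6 of 6 for Gfod2. Rdh1, a retinol dehydrogenase, had the largest difference of the 15 genes, -6.48 ± 0.68, with changes of -3.51 at 12 h and 2.98 at 1 day, but it was at or below 1.13 CPM in each LC liver. Tmie, a transmembrane protein of the inner ear, changed by -2.19 at 12 h and 1.21 at 1 day and Cpt1b, the muscle-type carnitine palmitoyltransferase, by -1.14 at 12 h and 1.12 at 1 day. Mettl1, a tRNA methyltransferase, changed by -1.82 at 12 h and 1.11 at 1 day. Gm31166 and A230050P20Rik, named only by a gene model and a clone identifier, changed by -1.75 at 12 h and 1.29 at 1 day and by -1.05 at 12 h and 1.26 at 1 day. Without overlap of the livers at both times were 13 of the 15 genes. The exceptions were Cpt1b at 12 h and Mettl1 at 1 day. Over all genes 70.8% did not overlap at 12 h and 25.5% at 1 day. The 1 day call held in 6 of 6 fits without 1 LC liver for Slc7a2, Ass1 and Gfod2 and in 0 to 3 of 6 for the other 12 genes. Rdh1, Cpt1b and Mettl1 were added to the named genes after their values had been seen so that each of the 15 is given.

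Over the whole amino acid list rises prevailed at 12 h on counts, and the members that passed at 1 day all fell. At 12 h 16 of 30 members rose and 6 fell (median 0.87, against 0.21 over all genes), and at 1 day 0 rose and 9 fell (median -0.61, against 0.00). On TPM, with an all-gene median of -0.29, the 12 h median of the list was 0.21, with 13 up and 13 down. The difference passed with the 12 h change above for 17 members and below for 2. Tat, the tyrosine aminotransferase, was at 209.8, 262 and 261 CPM in the 12 h sham and 3043, 4302 and 3561 CPM in the 12 h MI livers. At 1 day, Tat was at 701, 1137 and 843 CPM in the LC + sham and 388, 768 and 600 CPM in the LC + MI livers. At 12 h the MI livers were far above the sham livers while the LC groups overlapped, with a difference of 4.51 ± 0.38. Tdo2, which opens the tryptophan ring, changed by 3.46 at 12 h and -0.70 at 1 day and Arg1, the arginase that releases urea, by 3.26 at 12 h and 0.15 at 1 day. Slc25a15, the mitochondrial ornithine carrier, changed by 2.19 at 12 h and -0.33 at 1 day. None of these 1 day values passed. Pck1, the first committed enzyme of gluconeogenesis, changed by 2.1 at 12 h and -0.43 at 1 day.

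**Figure D3:**
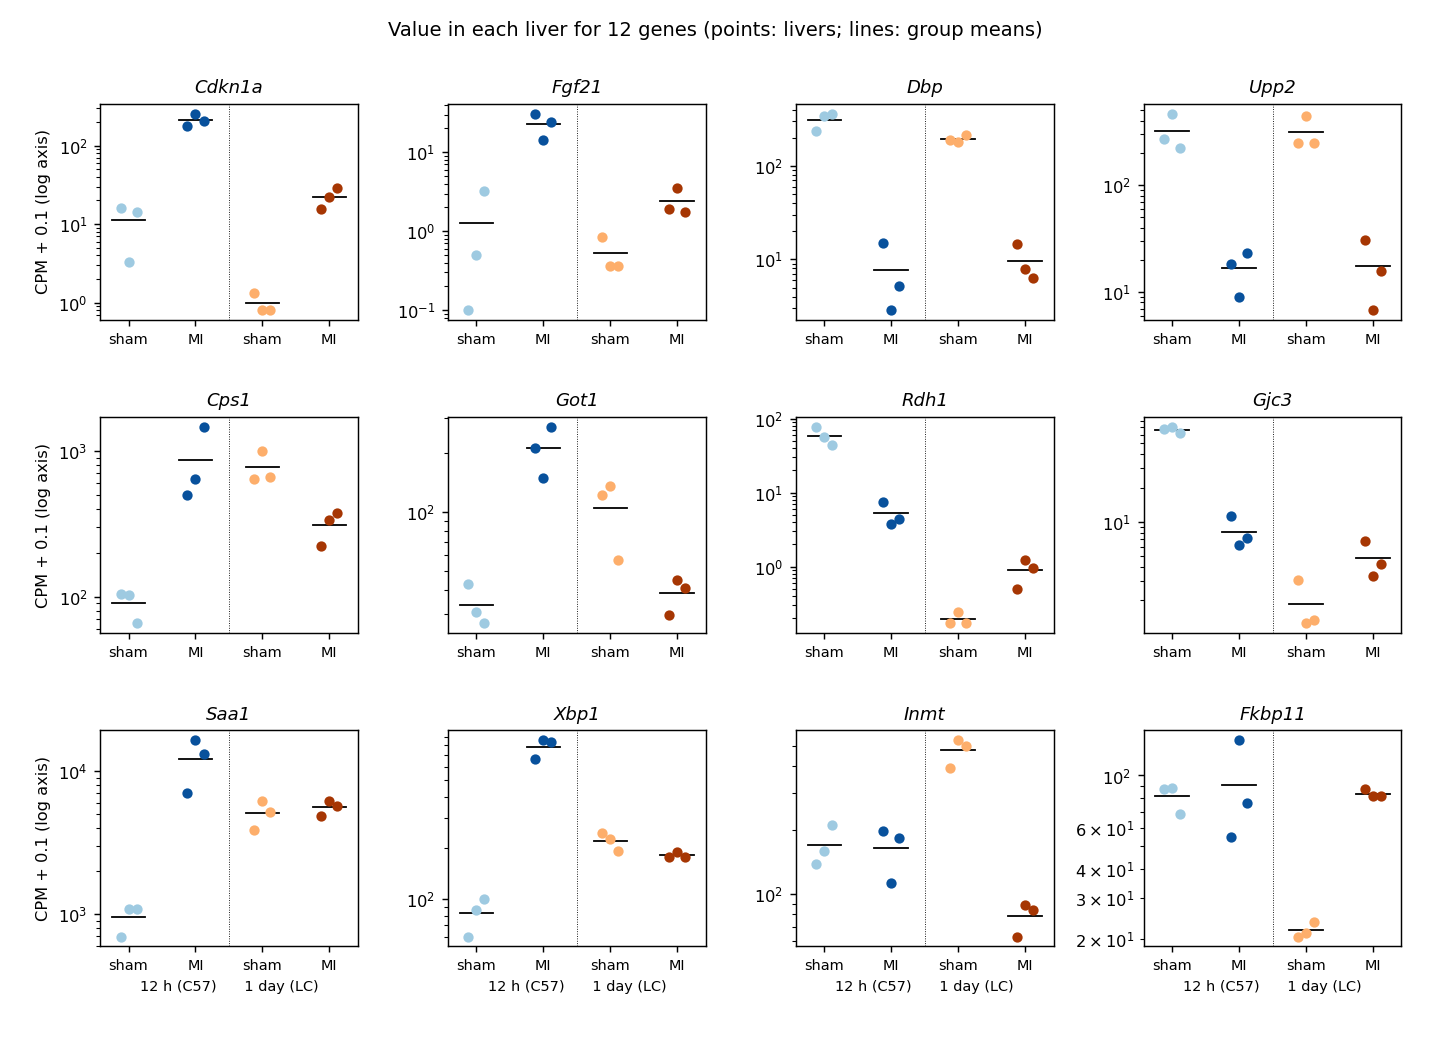
CPM of 12 genes in each of the 12 livers on a log axis (CPM + 0.1), with sham and MI livers at 12 h on the left and LC + sham and LC + MI livers at 1 day on the right of each panel. Cdkn1a and Fgf21 are higher and Dbp and Upp2 lower in all MI livers at both times, Cps1 and Got1 are higher at 12 h and lower at 1 day, Rdh1 and Gjc3 show the opposite order, and Saa1, Inmt and Fkbp11 separate at 1 time. Xbp1 is far higher in all MI livers at 12 h and slightly lower in all of them at 1 day, where its change did not pass.

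The unfolded protein response was the list with the largest share of members up at 12 h. It is the program by which cells meet a load of unfolded protein in the endoplasmic reticulum, through the sensors ATF6, IRE1 with its target Xbp1, and PERK. At 12 h 29 of 30 members rose and 0 fell (median 3.09), at 1 day 10 rose and 0 fell (median 0.65), and the difference passed with the 12 h change above for 28 and below for 0. Its 12 h median was 2.41 on TPM, with 27 up and 0 down, and 3.06 in the thinned libraries. Derl3, a degradation factor of the endoplasmic reticulum, Sdf2l1, a chaperone cofactor, Manf, a secreted survival factor, and Ssr3, a translocon subunit, rose at both times.

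Part of the promoters of this list held the ER stress response element, to which ATF6 and the factor NF-Y are known to bind. The element was searched as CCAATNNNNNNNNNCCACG on both strands from 250 bases before to 50 bases after the gene start, with promoters from RefSeq on build GRCm38.p6, while the notes of the submitters name mm9 without a role. It was present in 39 of 32851 promoters (0.119%), in 17 of the 9182 compared genes with a promoter (0.185%) and in 9 of the 24 list members with one (37.5%). Of these 9 genes 8 rose at 12 h, the exception being Canx with a log2 change of 0.59 ± 0.29 (adjusted p = 0.0969), and of the 15 members without it all 15 rose. At 1 day 2 of the 9 and 6 of the 15 rose. The median 12 h change was 3.24 with the element and 2.90 without. A match describes the letters in this window and is not a shown binding site. Hspa5, Hsp90b1, Dnajc3, Syvn1, Creld2, Pdia6, Calr and Canx were added to the named genes because they hold it, after their values had been seen. The sequences run along the strand of the gene with 20 bases on each side, lie before the gene start and overlap no annotated exon, and are given to show how the element (in capitals, in the reverse complement where it starts with CGTGG) sits in genes that rose.
Derl3, chr10:75893222-75893280, gene on the plus strand: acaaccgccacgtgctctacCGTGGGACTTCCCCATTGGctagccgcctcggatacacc
Dnajc3, chr14:118937807-118937865, gene on the plus strand: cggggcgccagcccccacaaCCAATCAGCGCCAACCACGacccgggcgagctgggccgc
Syvn1, chr19:6046512-6046570, gene on the plus strand: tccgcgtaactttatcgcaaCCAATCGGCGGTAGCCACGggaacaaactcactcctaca
Creld2, chr15:88819500-88819558, gene on the plus strand: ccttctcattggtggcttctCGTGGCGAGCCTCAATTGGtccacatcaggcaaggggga
Pdia6, chr12:17266471-17266529, gene on the plus strand: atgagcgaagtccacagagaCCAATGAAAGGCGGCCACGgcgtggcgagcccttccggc
Calr, chr8:84847055-84847113, gene on the minus strand: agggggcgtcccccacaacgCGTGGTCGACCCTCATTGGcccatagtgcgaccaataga
Hsp90b1, chr10:86705618-86705676, gene on the minus strand: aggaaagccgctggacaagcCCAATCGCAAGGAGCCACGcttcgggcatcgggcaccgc
Hsp90b1, chr10:86705513-86705571, gene on the minus strand: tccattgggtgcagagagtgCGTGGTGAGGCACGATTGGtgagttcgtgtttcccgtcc

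Derl3 was at 0.589, 5.54 and 7.30 CPM in the 12 h sham and 114, 234 and 275 CPM in the 12 h MI livers. At 1 day it was at 7.57, 9.22 and 20.2 CPM in the LC + sham and 58.0, 76.2 and 79.7 CPM in the LC + MI livers. Each MI liver was above each sham liver at both times, with changes of 5.41 ± 0.52 at 12 h (adjusted p = 1.32e-05) and 2.53 ± 0.34 at 1 day (adjusted p = 0.00246) and a difference of 2.87 ± 0.65 (adjusted p = 0.00114). Of the other genes with the element, Hspa5, which encodes the major chaperone BiP, changed by 4.64 at 12 h and 0.69 at 1 day and Hsp90b1, the chaperone GRP94, by 3.24 at 12 h and 1.08 at 1 day. Creld2, a stress-induced disulfide isomerase, changed by 4.02 at 12 h and 1.5 at 1 day, and Syvn1, a ubiquitin ligase of protein degradation, by 3.51 at 12 h and 0.48 at 1 day. The 1 day values of these 4 genes did not pass (adjusted p from 0.0585 to 0.403). Pdia6, a disulfide isomerase, changed by 3.23 at 12 h and 0.47 at 1 day and Dnajc3, an inhibitor of PERK, by 1.83 at 12 h and 0.61 at 1 day, and neither passed at 1 day. Calr, the lectin chaperone calreticulin, rose at both times, by 2.38 at 12 h and by 0.85 at 1 day (adjusted p = 0.0194).

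Xbp1 itself, the transcription factor of the IRE1 arm, was at 60.1, 86.6 and 100.1 CPM in the 12 h sham and 661, 856 and 837 CPM in the 12 h MI livers. It was at 244, 224 and 192 CPM in the LC + sham and 177, 189.6 and 175 CPM in the LC + MI livers. Xbp1 was high in all 12 h MI livers, while the LC + MI livers lay slightly below the LC + sham livers, and the 1 day change of -0.28 ± 0.19 did not pass. The difference was 3.53 ± 0.30. Sdf2l1 changed by 4.40 ± 0.31 at 12 h (adjusted p = 4.34e-06) and 1.83 ± 0.26 at 1 day (adjusted p = 0.00334), Manf by 4.45 at 12 h and 1.29 at 1 day with overlap of the LC groups, and Ssr3 by 3.95 at 12 h and 1.04 at 1 day. The 1 day calls of Manf and Ssr3 held in 2 of 6 and 2 of 6 fits without 1 LC liver. Derl1, Pdia3 and Sec61a1, of degradation, disulfide exchange and translocation, rose at 12 h by 2.63, 3.32 and 2.96, and their 1 day values were 0.21, 0.84 and 0.87, with an adjusted p of 0.0185 for Pdia3 and 0.0193 for Sec61a1. Fkbp11, a prolyl isomerase of the endoplasmic reticulum that is no member of the list, had the opposite timing. It was at 87.2, 88.2 and 68.4 CPM in the 12 h sham and 54.3, 141 and 76.5 CPM in the 12 h MI livers. At 1 day, Fkbp11 was at 20.5, 21.2 and 23.6 CPM in the LC + sham and 87.5, 81.4 and 81.5 CPM in the LC + MI livers. Its 12 h groups overlapped, its LC groups were far apart, and the changes were 0.16 ± 0.32 at 12 h (adjusted p = 0.667) and 1.94 ± 0.26 at 1 day (adjusted p = 0.00233) with a difference of -1.78 ± 0.43. In the list of the ATF4 arm, 11 of 18 members rose and 4 fell at 12 h (10 and 4 on TPM), and 4 rose and 0 fell at 1 day. Psat1, of serine synthesis, changed by 2.31 at 12 h and 3.35 at 1 day and Atf5, a transcription factor, by 2.63 at 12 h and 1.4 at 1 day. Atf4 changed by 2.14 at 12 h and 0.44 at 1 day and Chac1, which degrades glutathione, by 3.48 at 12 h and -0.34 at 1 day, and neither Atf4 nor Chac1 passed at 1 day.

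Most acute phase genes rose at 12 h. Of 34 induced acute phase genes 30 rose and 0 fell at 12 h (median 2.44), and 6 rose and 0 fell at 1 day (median 0.50), with a difference above for 20 and below for 0. The 12 h median was 1.77 on TPM, with 22 up and 0 down. Saa1, a serum amyloid A, was at 699, 1088 and 1093 CPM in the 12 h sham and 7070.3, 16448 and 13096 CPM in the 12 h MI livers. At 1 day Saa1 was at 3873, 6231 and 5203 CPM in the LC + sham and 4845, 6229 and 5703 CPM in the LC + MI livers. The 12 h MI livers were all above the sham livers and the LC groups overlapped, with changes of 3.67 ± 0.40 at 12 h (adjusted p = 2.53e-05) and 0.13 ± 0.21 at 1 day (adjusted p = 0.773) and a difference of 3.54 ± 0.40. Saa2, its close paralog whose reads may be shared with Saa1, changed by 3.85 at 12 h and 0.34 at 1 day. Fgg and Fgb, chains of fibrinogen, changed by 4.42 at 12 h and 0.54 at 1 day and by 4.36 at 12 h and 0.94 at 1 day, and the 1 day value of Fgb passed (adjusted p = 0.0277) at less than the fold threshold.

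Other acute phase genes were called at both times. Lcn2, the iron-siderophore binding lipocalin, was at 614, 659 and 969.7 CPM in the 12 h sham and 9750, 18959 and 12354 CPM in the 12 h MI livers. It was at 1144, 441 and 2089 CPM in the LC + sham and 4449.9, 5151 and 5027 CPM in the LC + MI livers. The groups did not overlap, the change was 4.19 ± 0.38 at 12 h (adjusted p = 9.76e-06) and 1.99 ± 0.42 at 1 day (adjusted p = 0.0215), and the difference was 2.2 ± 0.57. The 1 day call held in 3 of 6 fits without 1 LC liver. Serpina3n, a protease inhibitor, changed by 3.75 ± 0.41 at 12 h (adjusted p = 2.67e-05) and 1.68 ± 0.21 at 1 day (adjusted p = 0.00151), and Apcs, serum amyloid P, by 3.60 ± 0.33 at 12 h (adjusted p = 9.75e-06) and 1.4 ± 0.25 at 1 day (adjusted p = 0.0114), and both 1 day calls held in 6 of 6 such fits. Steap4, a metalloreductase, changed by 5.53 at 12 h and -0.54 at 1 day, and Cd14, the coreceptor of endotoxin, by 5.65 at 12 h and 0.23 at 1 day, the 12 h MI livers holding 2.60, 82.9 and 22.6 CPM of Cd14. Of 14 genes that the acute phase is known to repress, 9 rose and 1 fell at 12 h (median 1.17, 6 and 2 on TPM), and 0 rose and 1 fell at 1 day. The member that fell was Serpina6 at both times. Alb, serum albumin, changed by 1.97 at 12 h and -0.01 at 1 day and Ahsg, fetuin-A, by 2.37 at 12 h and -0.41 at 1 day, and neither passed at 1 day. The summed hepatocyte markers were 50561 to 60162 CPM in the 12 h sham and 124371 to 168059 CPM in the 12 h MI livers, against 100777 to 107914 and 99512 to 105950 CPM at 1 day, and their part in these 12 h rises was not tested.

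Signaling genes upstream of the acute phase moved at 12 h. Stat3, which carries the interleukin-6 signal, was at 67.8, 88.2 and 79.2 CPM in the 12 h sham and 198, 294 and 224 CPM in the 12 h MI livers. At 1 day, Stat3 was at 129, 115 and 84.3 CPM in the LC + sham and 118, 114 and 113 CPM in the LC + MI livers. All 12 h MI livers were above the sham livers and the LC groups overlapped, with changes of 1.60 ± 0.23 at 12 h (adjusted p = 0.000147) and 0.07 ± 0.17 at 1 day (adjusted p = 0.867). Il6ra, the interleukin-6 receptor, changed by -1.92 ± 0.26 at 12 h (adjusted p = 0.000104) and -0.52 ± 0.13 at 1 day (adjusted p = 0.0365), and its coreceptor Il6st by 0.00 at 12 h and 0.17 at 1 day, which did not pass at either time. Over 31 genes of this pathway 16 rose and 4 fell at 12 h (14 and 7 on TPM), and 0 rose and 3 fell at 1 day. Junb and Bcl3, nuclear factors of the cytokine response, changed by 2.53 at 12 h and -0.87 at 1 day and by 2.2 at 12 h and -0.03 at 1 day. In the list of NF-kB and TNF feedback 13 of 26 members rose and 4 fell at 12 h, and 1 rose and 0 fell at 1 day, with 6 up and 6 down at 12 h on TPM. Il1r1, a receptor in this list and in that of the interleukin-6 pathway, changed by 4.34 at 12 h and 0.51 at 1 day. Tnfrsf1a, a TNF receptor named from the interleukin-6 pathway list, changed by 2.89 at 12 h and 0.24 at 1 day. The inhibitor Nfkbia and the subunit Nfkb2 changed by -1.66 at 12 h and -0.28 at 1 day and by -1.75 at 12 h and 0.05 at 1 day. The early response genes Zfp36, which destabilizes mRNA, and Btg2, an antiproliferative factor, changed by 3.20 at 12 h and -0.20 at 1 day and by 2.88 at 12 h and -0.09 at 1 day. Of metal transporters, Slc39a14, the zinc importer ZIP14, changed by 4.18 at 12 h and 0.25 at 1 day, and Slc30a10, a manganese exporter, was called at both times, by 3.11 at 12 h and 1.93 at 1 day.

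The clock genes held members that agreed, members that changed sign and members seen at one time. The molecular clock runs by the activators ARNTL and CLOCK, which bind E-boxes and drive their own repressors Per and Cry and, through Nr1d1, the repression of Arntl. Arntl was at 3.54, 1.19 and 2.78 CPM in the 12 h sham and 4.84, 9.39 and 8.03 CPM in the 12 h MI livers. At 1 day it was at 1.36, 0.407 and 1.08 CPM in the LC + sham and 10.2, 6.51 and 7.27 CPM in the LC + MI livers. It was higher in each MI liver at both times, by 1.61 ± 0.44 at 12 h (adjusted p = 0.00824) and 3.06 ± 0.35 at 1 day (adjusted p = 0.00121), with a difference of -1.43 that did not pass (adjusted p = 0.0549, 95% interval before adjustment -2.79 to -0.08). Nr1d1, its repressor, was at 147, 141 and 137 CPM in the 12 h sham and 65.3, 17.8 and 33.7 CPM in the 12 h MI livers. It was at 92.8, 56.4 and 62.8 CPM in the LC + sham and 24.9, 8.81 and 8.06 CPM in the LC + MI livers. Nr1d1 was lower in each MI liver at both times, with changes of -1.86 ± 0.38 at 12 h (adjusted p = 0.00149) and -2.35 ± 0.37 at 1 day (adjusted p = 0.00603). Its paralog Nr1d2 was at 14.7, 19.8 and 18.4 CPM in the 12 h sham and 34.6, 30.4 and 33.6 CPM in the 12 h MI livers. At 1 day, Nr1d2 was at 72.6, 68.9 and 61.8 CPM in the LC + sham and 32.0, 26.8 and 22.6 CPM in the LC + MI livers. Nr1d2 was higher in each 12 h MI liver, by 0.89 (adjusted p = 0.00287), and lower in each LC + MI liver, with a change of -1.32 ± 0.16. The difference was 2.21 ± 0.23.

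Of 16 core clock genes 9 rose and 3 fell at 12 h (median 0.90), and 2 rose and 4 fell at 1 day (median -0.23), while 5 rose and 6 fell at 12 h on TPM. Of 10 clock output genes 4 rose and 5 fell at 12 h (2 and 6 on TPM), and 0 rose and 6 fell at 1 day. Cry1 changed by 2.47 at 12 h and 1.54 at 1 day, and its 1 day call held in 1 of 6 fits without 1 LC liver. Ciart, a repressor of the clock, was at 17.1, 13.8 and 17.0 CPM in the 12 h sham and 18, 10.8 and 15.5 CPM in the 12 h MI livers. At 1 day, Ciart was at 12.2, 21.5 and 24.8 CPM in the LC + sham and 3.41, 3.38 and 3.87 CPM in the LC + MI livers. Its 12 h groups overlapped, its LC groups did not, and the difference was 2.34 ± 0.40. Noct, a phosphatase with a daily rhythm, changed by 0.42 at 12 h and -2.06 at 1 day. Usp2, a deubiquitinase, changed by -4.80 at 12 h and -1.39 at 1 day, and its 1 day call held in 1 of 6 fits without 1 LC liver and was lost with the MR-intact libraries alone. Wee1, a cell cycle kinase, changed by -1.95 at 12 h and -1.63 at 1 day, and Nfil3, which opposes Dbp at its sites, by 3.34 at 12 h and 0.74 at 1 day. The repressor Bhlhe40 changed by 2.39 at 12 h and -0.59 at 1 day and Cry2 by 1.16 at 12 h and -0.19 at 1 day. The kinase Csnk1e changed by -2.41 at 12 h and 0.08 at 1 day and Hlf, a relative of Dbp, by 0.88 at 12 h and -0.01 at 1 day. The 12 h call of Cry2 did not hold on TPM.

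The E-box CACGTG, read on both strands since it is its own reverse complement, was present in 2349 of 32851 promoters (7.15%), in 1090 of 9182 compared genes (11.9%), in 3 of 11 core clock and in 3 of 9 clock output genes with a promoter. The windows of Cry1 and Ciart are given with the E-box in capitals, since both genes hold it and differ in response, Cry1 higher at both times and Ciart lower at 1 day. The second window of Ciart holds a further copy of these letters near its end.
Cry1, chr10:85185089-85185134, gene on the minus strand: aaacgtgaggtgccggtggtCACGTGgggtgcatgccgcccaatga
Ciart, chr3:95882319-95882364, gene on the minus strand: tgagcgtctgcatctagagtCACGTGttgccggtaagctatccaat
Ciart, chr3:95882261-95882306, gene on the minus strand: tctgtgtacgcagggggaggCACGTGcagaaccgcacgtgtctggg

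Changes at 1 day without one at 12 h were few and concerned varied functions. Inmt, which methylates indoles and thioethers, was at 138, 159 and 211 CPM in the 12 h sham and 199, 112 and 184 CPM in the 12 h MI livers. At 1 day it was at 393, 532 and 502 CPM in the LC + sham and 62.8, 88.5 and 84.0 CPM in the LC + MI livers. The 12 h groups overlapped and the LC groups were far apart, with changes of -0.04 ± 0.27 at 12 h (adjusted p = 0.907) and -2.60 ± 0.32 at 1 day (adjusted p = 0.00143) and a difference of 2.56 ± 0.43 (adjusted p = 9.41e-05). Hsd17b6, of androgen and retinoid metabolism, changed by -0.21 at 12 h and -2.70 at 1 day and Slco1a4, an organic anion transporter, by 0.20 at 12 h and -1.80 at 1 day. Among the rises, Hr, a nuclear corepressor, changed by 0.29 at 12 h and 3.03 at 1 day and Arid3a, a DNA-binding protein, by -0.16 at 12 h and 2.07 at 1 day. Mvd, of the mevalonate pathway, changed by -0.44 at 12 h and 1.42 at 1 day. The 1 day calls of Inmt and Hr held in 6 of 6 fits without 1 LC liver, those of Slco1a4, Arid3a and Mvd in 1 of 6.

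Large falls at 12 h without one at 1 day included Chek2, Fut8 and Rpgrip1. Chek2, the DNA damage kinase, was at 99.6, 98.1 and 56.6 CPM in the 12 h sham and 2.74, 0.828 and 1.36 CPM in the 12 h MI livers. At 1 day, Chek2 was at 0.897, 0.925 and 0.897 CPM in the LC + sham and 1.05, 0.724 and 1.04 CPM in the LC + MI livers. Fut8, the core fucosyltransferase, changed by -5.08 at 12 h and 0.38 at 1 day and Rpgrip1, a protein of the photoreceptor cilium, by -5.49 at 12 h and 0.13 at 1 day. Each 12 h sham liver was above each 12 h MI liver for these 3 genes, and the LC groups overlapped. Rtn4rl2, a receptor of myelin inhibitors, had 3 counts in the 12 h sham and 809 in the 12 h MI livers, a ratio of 44.1 (95% interval 15 to 214, counting error only), and changed by -0.14 at 1 day.

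The receptor and the hormone at the center of the study were read at both times. Nr3c2, which encodes MR, was at 1.77, 1.19 and 2.43 CPM in the 12 h sham and 0.491, 1.17 and 1.57 CPM in the 12 h MI livers. It was at 5.60, 6.70 and 4.71 CPM in the LC + sham and 3.56, 2.13 and 1.90 CPM in the LC + MI livers. At 12 h the groups overlapped, with 13 counts in all sham livers together, and at 1 day each LC + MI liver was below each LC + sham liver. The change was -0.74 ± 0.58 at 12 h (adjusted p = 0.277) and -1.18 ± 0.26 at 1 day (adjusted p = 0.0238), and the difference of 0.42 did not pass (95% interval -0.84 to 1.69). The 1 day call held in 3 of 6 fits without 1 LC liver, and it was lost when only the MR-intact libraries were fitted. Ncor1, a corepressor, was at 988, 1026 and 594 CPM in the 12 h sham and 119, 69.8 and 83.7 CPM in the 12 h MI livers. At 1 day, Ncor1 was at 41.0, 37.8 and 36.0 CPM in the LC + sham and 51.5, 39.7 and 41.3 CPM in the LC + MI livers. It was lower in each 12 h MI liver and overlapped at 1 day, with a difference of -3.46 ± 0.31. Hdac3, the deacetylase partner of Ncor1, changed by 0.55 ± 0.21 at 12 h (adjusted p = 0.0345) and 0.03 ± 0.15 at 1 day (adjusted p = 0.936), and its 12 h value was -0.04 on TPM. Of the receptors for FGF21, Klb, the coreceptor, changed by 0.12 at 12 h and 0.01 at 1 day, Fgfr1 by -0.09 at 12 h and -0.63 at 1 day, Fgfr2 by 0.33 at 12 h and -0.46 at 1 day and Fgfr4 by -0.21 at 12 h and 0.25 at 1 day, none past the threshold. Fgfr3 changed by -1.53 ± 0.24 at 12 h (adjusted p = 0.000293) and by -0.17 at 1 day. Over the 12 genes of this axis 3 rose and 3 fell at 12 h (2 and 6 on TPM), and 1 rose and 2 fell at 1 day.

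Lipid and xenobiotic regulators varied one by one. Srebf1, the transcription factor of fatty acid synthesis, was at 93.7, 58.1 and 85.1 CPM in the 12 h sham and 32.0, 36.6 and 26.1 CPM in the 12 h MI livers. At 1 day, Srebf1 was at 282, 230.2 and 309 CPM in the LC + sham and 111, 88 and 87 CPM in the LC + MI livers. It was lower in each MI liver at both times, with changes of -1.32 ± 0.23 at 12 h (adjusted p = 0.000504) and -1.52 ± 0.21 at 1 day (adjusted p = 0.00301). Its inhibitor Insig2 changed by 3.54 ± 0.28 at 12 h (adjusted p = 5.14e-06) and 1.57 ± 0.21 at 1 day (adjusted p = 0.00233) and the desaturase Scd1 by 2.26 at 12 h and 0.13 at 1 day. Abcg5 and Abcg8, the subunits of the sterol exporter, changed by -2.23 at 12 h and -1.23 at 1 day and by -1.63 at 12 h and -1.85 at 1 day, and the difference passed for Abcg5 (-1.0 ± 0.42) and not for Abcg8. Nr1i3, the xenobiotic receptor CAR, was at 326, 291 and 393 CPM in the 12 h sham and 165, 50.3 and 93.1 CPM in the 12 h MI livers. At 1 day, Nr1i3 was at 335, 356 and 423 CPM in the LC + sham and 789, 547 and 728 CPM in the LC + MI livers. It was below the sham livers at 12 h and above them at 1 day in all MI livers, with changes of -1.71 ± 0.37 at 12 h (adjusted p = 0.00208) and 0.89 ± 0.20 at 1 day (adjusted p = 0.0251) and a difference of -2.60 ± 0.43, the later change lying under the fold threshold. Of 22 cytochrome P450 genes of families 1 to 3, 10 rose and 1 fell at 12 h (5 and 2 on TPM), and 1 rose and 2 fell at 1 day. Cyp2e1, which oxidizes ethanol, changed by 2.66 at 12 h and -0.45 at 1 day and Cyp3a13, a drug-metabolizing enzyme, by 2.63 at 12 h and 0.07 at 1 day. Cyp7b1, of the alternative bile acid pathway, Hnf4a and Rxra, receptors that maintain the hepatocyte, rose at 12 h by 1.49, 1.16 and 1.01, with 1 day values of -0.87, -0.15 and -0.17. The calls of Cyp7b1 and Rxra did not hold on TPM.

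Interferon-stimulated genes and markers of resident macrophages had almost no members that rose at either time, and both lists held members that fell at both. Of 32 interferon-stimulated genes 1 rose and 18 fell at 12 h (median -0.81, 0 and 24 on TPM), and 0 rose and 5 fell at 1 day (median -0.62). The 1 that rose was Bst2, an antiviral membrane protein, at 0.85 ± 0.26 at 12 h (adjusted p = 0.0141) and -0.97 ± 0.16 at 1 day (adjusted p = 0.00838). Irf7, the master regulator of interferon production, was at 118, 121 and 105 CPM in the 12 h sham and 20.2, 17.3 and 18.4 CPM in the 12 h MI livers. At 1 day, Irf7 was at 73.3, 51.9 and 39.6 CPM in the LC + sham and 36.0, 24.1 and 25.8 CPM in the LC + MI livers. Each MI liver was below each sham liver at both times, with changes of -2.62 ± 0.19 at 12 h (adjusted p = 4.34e-06) and -0.94 ± 0.20 at 1 day (adjusted p = 0.0232). Ifi44, an interferon-induced protein, changed by -3.23 at 12 h and -1.43 at 1 day, its 1 day call holding in 0 of 6 fits without 1 LC liver. Of 20 Kupffer cell and macrophage markers 0 rose and 4 fell at 12 h (0 and 9 on TPM), and 0 rose and 8 fell at 1 day. Over all genes 28.5% fell at 12 h on counts and 2.61% at 1 day, so the 12 h falls of these markers on counts were not above that share. Their summed level was 302 to 578 CPM in sham and 178 to 469 CPM in MI livers at 12 h and 412 to 538 against 247 to 298 CPM at 1 day. Clec4f, a lectin of Kupffer cells, changed by -2.25 ± 0.28 at 12 h (adjusted p = 5.42e-05) and -0.71 ± 0.16 at 1 day (adjusted p = 0.0287), and Aif1, a macrophage protein, by -1.83 ± 0.50 at 12 h (adjusted p = 0.00757) and -1.11 ± 0.21 at 1 day (adjusted p = 0.0132). In whole liver, fewer cells of a type and less RNA per cell cannot be told apart. Of 14 stellate cell and fibroblast markers 1 rose and 8 fell at 12 h (1 and 10 on TPM) and 0 passed at 1 day, with Col1a1 and Col3a1, fibrillar collagens, at -3.17 at 12 h and -0.36 at 1 day and at -2.88 at 12 h and -0.62 at 1 day. Of 17 sinusoidal endothelial markers 1 rose and 7 fell at 12 h (0 and 9 on TPM), and 0 rose and 1 fell at 1 day, with the scavenger receptor Stab1 at -1.90 at 12 h and 0.00 at 1 day. Of 9 neutrophil markers 6 rose and 2 fell at 12 h (5 and 2 on TPM, and 2 and 2 of the 4 tested in the thinned libraries) and 1 rose and 0 fell at 1 day, and the summed level of all 16 listed markers at 12 h, 804 to 1107 CPM in sham and 9799 to 19059 CPM in MI livers, came mostly from Lcn2, which hepatocytes also make.

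Groups of housekeeping genes also passed at 12 h and not at 1 day. Of 49 cytosolic ribosomal protein genes 32 rose and 1 fell at 12 h (median 0.79, 13 and 6 on TPM), and 0 rose or fell at 1 day. Of 46 nuclear-encoded genes of the respiratory chain 32 rose and 4 fell at 12 h (median 0.88, 17 and 6 on TPM), and of 31 proteasome genes 21 rose and 3 fell (median 1.06, 15 and 6 on TPM), and 0 of either list passed at 1 day. On TPM these 3 medians were 0.17, 0.27 and 0.44, against -0.29 over all genes. Nuclear receptors went the other way at 12 h, with 6 of 36 up and 16 down (1 and 21 on TPM), and 2 up and 4 down at 1 day. At an unadjusted p below 0.05 there were 7913 genes at 12 h and 2612 at 1 day among the 11532.

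**Figure D4:**
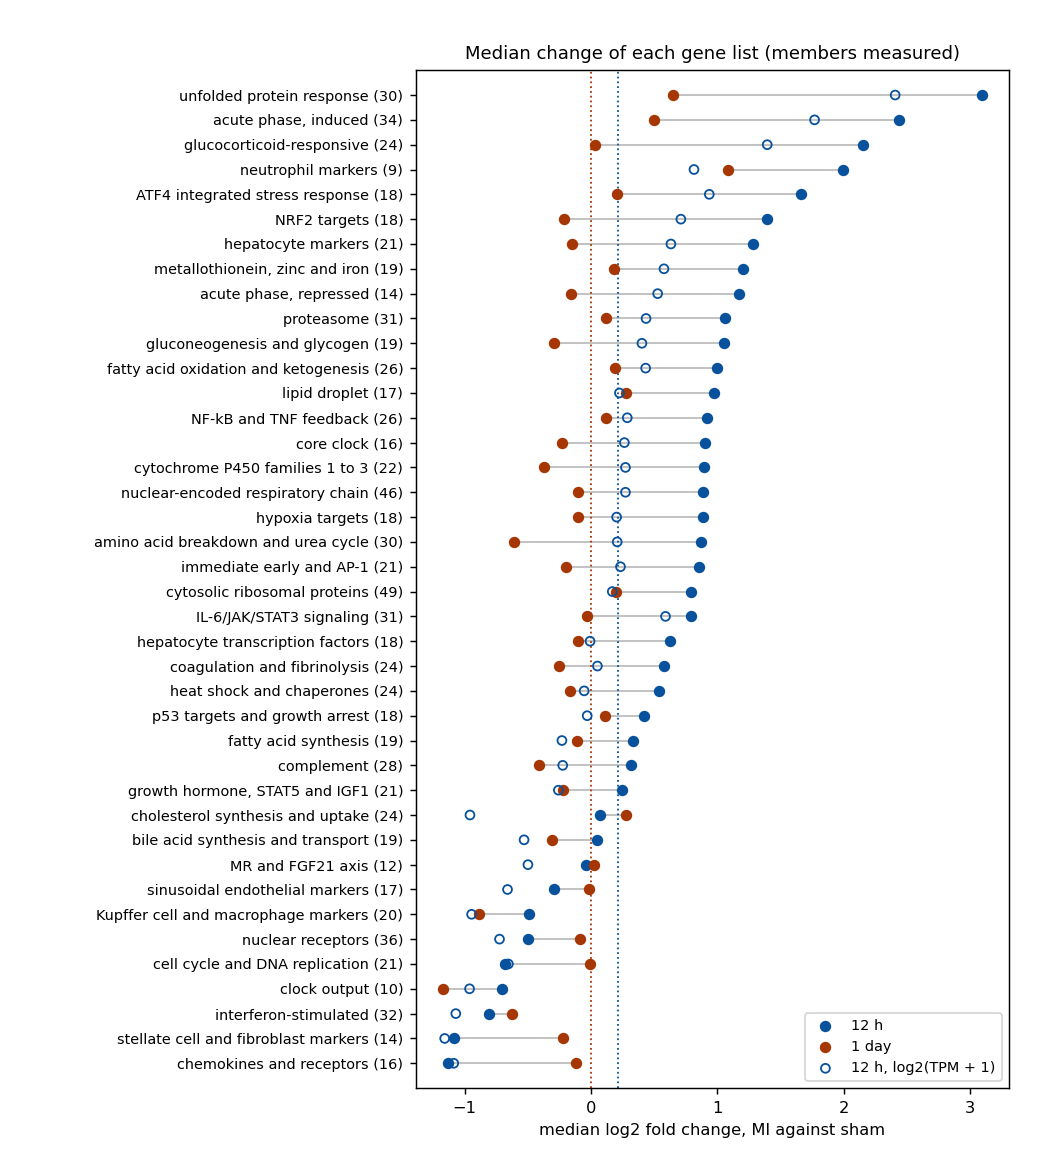
Median log2 change of MI against sham for each gene list at 12 h on counts (filled blue), at 12 h on TPM (open) and at 1 day (brown), with the all-gene medians as dotted lines. The unfolded protein response has the highest 12 h medians on both scales (3.09 and 2.41), while the amino acid list is at 0.87 at 12 h and at -0.61 at 1 day and the interferon list is negative at both times.

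**Figure D5:**
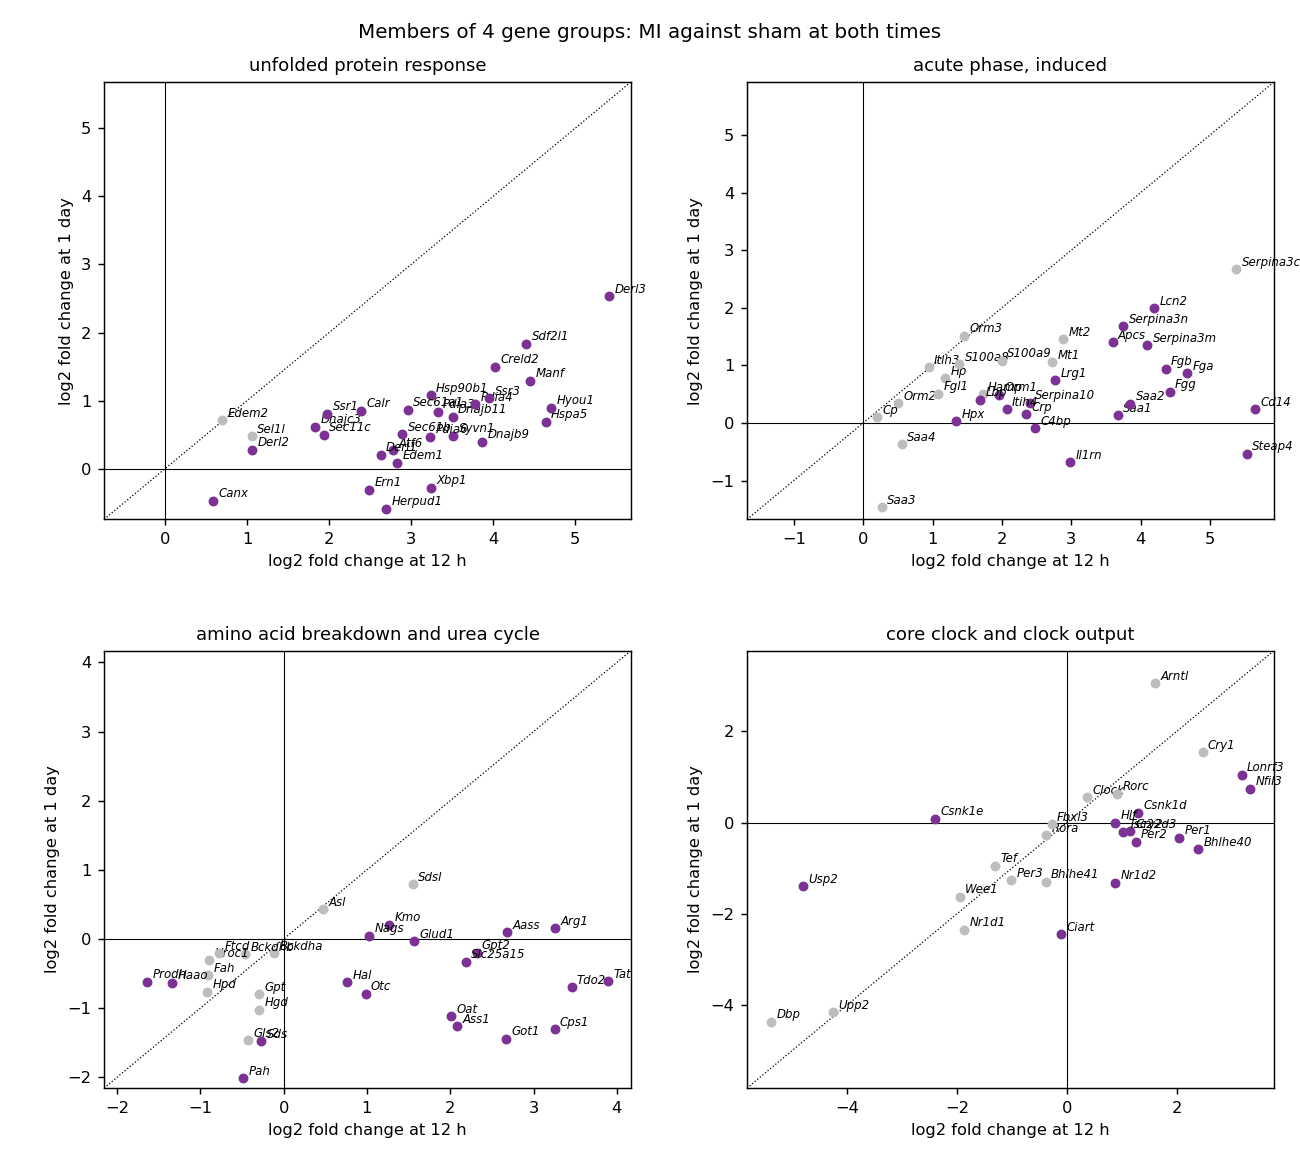
Log2 change at 12 h (horizontal) and at 1 day (vertical) of the members of 4 lists, with members whose difference between the times passed in purple. In the unfolded protein response 28 of 30 members pass with the 12 h change above, and in the amino acid list 17 of 30 do, several of them below 0 at 1 day.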

How the data were processed

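Liver RNA of 18 mice was sequenced, and the 12 libraries from mice with intact MR were compared. The authors deposited raw counts per gene for the 1 day experiment. For the 12 h experiment the deposited values are an estimated count, a TPM and an FPKM for each gene, with group averages by the authors that were not used. FPKM, which the authors scaled to gene length and library size, served only to derive the length of each gene, and the deposited TPM only for 1 alternative. The submitters' notes list DESeq2, TopHat2, HISAT2 2.1.0, Bowtie2 2.2.3 and build mm9 without roles. How reads were counted, with which annotation and strand setting, is not stated in the paper, labels or headers, so reads shared by overlapping, antisense or near-identical genes cannot be assigned. Each file was normalized separately and the genes were joined by symbols unique in both.

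Estimated counts were rounded. Genes were kept by filterByExpr (minimum count 10, total 15), scaled by TMM and tested with edgeR 4.0.16 (quasi-likelihood, R 4.3.3) within each experiment, with Benjamini-Hochberg adjustment over 12548 genes at 12 h and 14266 at 1 day. The 1 day fit held all 12 libraries of that experiment. The difference of the responses was a contrast in a joint fit of 18 libraries. Its 95% intervals were set from the SE and the t value at 12 residual degrees of freedom. Groups and times came from the labels and the series design, and 0 columns were left unmapped. Each library is 1 liver, and p-values measure only the spread between these livers. A fold against a group with 0 counts was set at a floor of 3 counts over the group, and intervals on counts cover counting error only.

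The genes named were, in each direction, up to 8 agreeing and 8 reversing genes with the largest smaller change and 6 single-time genes with the largest difference and a change under 0.5 at the other time, without overlap of the livers and with a mean of at least 1 CPM in the higher group. All members of the MR and FGF21 axis were added, and from each other list up to 5 with the smallest p of the difference and 3 agreeing. The exceptions are stated beside them. This rule gives 286 genes, of which 130 are given with values and 156, among them 11 of the 52 from the classes, are not reported here. The members and lists were chosen with earlier results of these data known. Alternatives were RLE size factors, other filters and fold thresholds, DESeq2 1.42.0, limma 3.58.1 (log2(TPM + 1) at 12 h), the difference from z values of the separate fits or by limma-voom, calls from the joint fit, the MR-intact libraries alone, a replicate block and leaving out each liver. Thinning the 12 h MI libraries to sham depth and leaving out Gm20594, which changed no class count, and centring the 12 h changes by length were added after seeing the data. Centring moved the 12 h values of Acaa2, Acnat2, Arg1, Atf4, Bst2, Gstm3 and Irf7 by at least their SE. It did the same for Ncor1, Nfkbia, Ntrk2, Sdf2l1, Serpina6, Slc7a2 and Stab1. Centring turned the sign of no 12 h value of a named gene that had passed. The fits were tested on simulated data of 11172 genes, in which 52% of the genes given a log2 change of 1 passed at 12 h and 48% at 1 day, and 100% of those given 3 at either time. The difference passed for 17% of the genes with a true difference of 1, 54% with 1.5 and 100% with 3. At each time 10972 of these 11172 genes had no change, and 50 were given each size of change. Recovery with as large a share of changed genes as was called at 12 h was not tested. Changes were given only to genes with a mean above 50 counts in both experiments, and all genes were drawn with 1 common spread. Recovery of genes with few counts, or with a larger spread, was therefore not tested.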

Additional observations from a re-analysis of the deposited data

Results flagged for a closer look

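The 2 responses differed, by a test of the difference between the MI effects in the joint edgeR fit, for 3945 genes whose 12 h change lay above the 1 day change and for 2927 whose 12 h change lay below it. The depth of the 12 h sham libraries moved with the 12 h contrast, and its part in these differences was not tested beyond the thinned libraries, in which 5669 of 9437 genes passed. The genes named above for which the difference passed are given with the 12 h minus the 1 day log2 change.

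Genes called up at 12 h and not at 1 day included Steap4, which differed by 6.07, Rtn4rl2 by 5.59, Cd14 by 5.43, Tat by 4.51, Tdo2 by 4.16, Hspa5 by 3.95, Slc39a14 by 3.92 and Fgg by 3.88. Il1r1 differed by 3.82, Chac1 by 3.81, Saa1 by 3.54, Xbp1 by 3.53, Saa2 by 3.51, Fgb by 3.42, Zfp36 by 3.41 and Junb by 3.39. Cyp2e1 differed by 3.11, Arg1 by 3.11, Syvn1 by 3.03, Btg2 by 2.99, Bhlhe40 by 2.98, Ahsg by 2.78, Pdia6 by 2.76 and Tnfrsf1a by 2.65. Nfil3 differed by 2.60, Cyp3a13 by 2.56, Pck1 by 2.53, Creld2 by 2.52, Slc25a15 by 2.52, Pdia3 by 2.48, Derl1 by 2.42 and Plin5 by 2.42. Cyp7b1 differed by 2.36, Cpt1a by 2.29, Acaa2 by 2.24, Bcl3 by 2.22, Hsp90b1 by 2.16, Scd1 by 2.13, Sec61a1 by 2.09 and Alb by 1.98. Atf4 differed by 1.71, Stat3 by 1.54, Calr by 1.53, Pnpla2 by 1.46, Cry2 by 1.34, Hnf4a by 1.32, Dnajc3 by 1.22 and Rxra by 1.18. Genes called down at 12 h and not at 1 day included Chek2, which differed by -5.73, Rpgrip1 by -5.67, Fut8 by -5.46, Ncor1 by -3.46, Col1a1 by -2.81, Nr1i3 by -2.60, Csnk1e by -2.48 and Col3a1 by -2.25. Stab1 differed by -1.90, Nfkb2 by -1.81, Irf7 by -1.68, Clec4f by -1.53, Il6ra by -1.40, Nfkbia by -1.38 and Fgfr3 by -1.36. Genes called up at both times included Manf, which differed by 3.16, Ssr3 by 2.92, Derl3 by 2.87, Sdf2l1 by 2.57, Lcn2 by 2.2, Apcs by 2.2, Serpina3n by 2.07 and Insig2 by 1.97. Cd36 differed by 1.92, Atf5 by 1.23 and Slc30a10 by 1.18. Genes called down at both times included Usp2, which differed by -3.40, Ifi44 by -1.82, Serpina6 by 1.27 and Abcg5 by -1.0. Genes called up at 1 day only included Hr, which differed by -2.74, Arid3a by -2.24, Mvd by -1.86 and Fkbp11 by -1.78. Genes called down at 1 day only included Inmt, which differed by 2.56, Hsd17b6 by 2.48, Noct by 2.48, Ciart by 2.34, Nr1d2 by 2.21 and Slco1a4 by 2.02. Reversing genes that were up at 12 h included Cps1, which differed by 4.56, Gcnt4 by 4.19, Got1 by 4.12, Slc7a2 by 3.73, Ass1 by 3.34, Ugt2b1 by 3.21 and Gstm3 by 2.46. Reversing genes that were down at 12 h included Rdh1, which differed by -6.48, Gjc3 by -4.40, Tmie by -3.40, Gm31166 by -3.05, Mettl1 by -2.93, Gfod2 by -2.61, A230050P20Rik by -2.32 and Cpt1b by -2.26. Genes called at neither time included Bst2, which differed by 1.81, Canx by 1.06 and Hlf by 0.89.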

How the results depend on the processing

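The depth of the 12 h sham libraries limits what can be said of genes with few counts there, and the 1 day counts rest on 3 LC livers a group. With a fold threshold of 0.58 in place of 1, 577 genes were called at 1 day, 296 agreed, 80 reversed and 115 were seen at 1 day only. With a threshold of 2 these counts were 63, 38, 1 and 14, with 2104 genes called at 12 h and 1935 seen at 12 h only. Without the filter on low counts 482 genes were called at 1 day, 255 agreed and 34 reversed. With the 12 MR-intact libraries alone 178 were called at 1 day, 101 agreed and 7 reversed, and DESeq2 gave 26 reversing genes. The cause of these shifts was not tested beyond the change in threshold, genes or samples that each setting makes. Fits that left out 1 liver gave 4914 to 5766 genes called at 12 h, 121 to 431 called at 1 day, 6059 to 6913 with a difference, 71 to 293 agreeing, 5 to 21 reversing, 4354 to 5015 seen at 12 h only and 29 to 84 seen at 1 day only. The remaining settings left these 7 counts within 1.5 times.

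The deviations of same-numbered livers had correlations of -0.110 to 0.031 at 12 h and of 0.215, 0.308 and -0.067 in the 3 LC pairs, and since not every pair was above 0.1 the replicate number was not taken as a pairing. With the number as a block 5698 genes were called at 12 h, 285 at 1 day and 6725 differed, with 160 agreeing, 19 reversing, 4951 seen at 12 h only and 58 at 1 day only. In 0 of 6 livers at 12 h and 4 of 6 LC livers the closest deviation was that of the same number.

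Of the named genes' 121 calls at 12 h, 115 held on TPM, and 114 held in each fit without 1 liver that gave a value. In the thinned libraries 110 held, 1 was lost and 10 had no value. Held again means the same sign and an adjusted p below 0.05, without the fold threshold. Of the 69 calls at 1 day, 31 held in each fit without 1 LC liver. With the MR-intact libraries alone 44 of these held, Rdh1 had no value, and 24 were lost, those of Sult1e1, Ntrk2, Nrep, Cnmd, Enho, Got1, Ugt2b1, Gstm3, Gjc3, Tmie, Lcn2, Ssr3, Manf, Arid3a, Hsd17b6, Slco1a4, Usp2, Wee1, Nr3c2, Cd36, Ifi44, Mettl1, Gm31166 and A230050P20Rik. The sign was checked for values of the named genes with an adjusted p below 0.05 and for all values of the MR and FGF21 axis. Among these it turned only for the changes of Klb, Fgfr1, Fgfr2, Fgfr4, Hdac3, Il6st and Stat3 given here, none of which was called. The signs of the other values that did not pass were not checked. In fits without 1 liver the change of Klb ran from -0.33 to 0.60 at 12 h, from -0.11 to 0.13 at 1 day and from -0.34 to 0.60 for the difference, and it was -0.35 on TPM at 12 h and -0.011 with the block at 1 day. At 12 h Fgfr1 ran from -0.19 to 0.042 without 1 liver, with 0.065 without the filter and 0.12 after thinning, and Fgfr4 from -0.36 to 0.0088. Fgfr2 was at -0.23 and Hdac3 at -0.035 on TPM at 12 h, and at 1 day Hdac3 ran from -0.11 to 0.12 and Stat3 from -0.090 to 0.20 without 1 liver. Il6st at 12 h was -0.078 with RLE size factors, -0.092 with a stricter filter, -0.078 with DESeq2, -0.15 to 0.34 without 1 liver and -0.54 on TPM, and its difference ran from -0.33 to 0.16 without 1 liver.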

Other observations

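Further gene lists were measured in the same fits, at an adjusted p below 0.05 at any fold, and the 12 h counts of rises and falls are given on counts and, in brackets, on TPM. Over all genes 36.3% rose and 28.5% fell at 12 h on counts, and 2.73% rose and 2.61% fell at 1 day. Several lists lay near these 12 h shares, such as the immediate early genes (8 of 21 up) and the p53 targets (7 of 18 up). The bracketed counts have no such reference. Of 24 glucocorticoid-responsive genes 17 rose and 5 fell at 12 h (median 2.15, 15 and 6 on TPM), and 4 rose and 3 fell at 1 day (median 0.03). Of 18 NRF2 targets 12 rose and 0 fell at 12 h (median 1.39, 10 and 3 on TPM), and 1 rose and 2 fell at 1 day. Of 19 genes of metallothionein, zinc and iron handling 13 rose and 0 fell at 12 h (8 and 2 on TPM), and 1 rose and 0 fell at 1 day. Of 19 genes of gluconeogenesis and glycogen 12 rose and 4 fell at 12 h (8 and 6 on TPM), and 1 rose and 2 fell at 1 day. Of 19 genes of fatty acid synthesis 8 rose and 3 fell at 12 h (5 and 6 on TPM), and 1 rose and 2 fell at 1 day. Of 24 cholesterol genes 6 rose and 2 fell at 12 h on counts, but 2 rose and 9 fell on TPM (median -0.96), and 2 rose and 0 fell at 1 day. Of 19 bile acid genes 4 rose and 6 fell at 12 h (2 and 8 on TPM), and 1 rose and 4 fell at 1 day.

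Of 24 coagulation genes 12 rose and 6 fell at 12 h (6 and 9 on TPM), and 1 rose and 0 fell at 1 day. Of 28 complement genes 12 rose and 5 fell at 12 h (6 and 9 on TPM), and 0 rose and 5 fell at 1 day. Of 16 chemokine and receptor genes 3 rose and 8 fell at 12 h (3 and 11 on TPM), and 0 rose and 1 fell at 1 day. Of 18 p53 targets 7 rose and 3 fell at 12 h (7 and 5 on TPM), and 1 rose and 1 fell at 1 day. Of 21 cell cycle genes 3 rose and 9 fell at 12 h (3 and 12 on TPM), and 0 passed at 1 day. Of 24 heat shock genes 12 rose and 7 fell at 12 h (7 and 8 on TPM), and 0 rose and 2 fell at 1 day. Of 21 genes of growth hormone action 9 rose and 5 fell at 12 h (6 and 8 on TPM), and 0 rose and 2 fell at 1 day. Of 18 hypoxia targets 8 rose and 3 fell at 12 h (7 and 5 on TPM), and 1 rose and 0 fell at 1 day. Of 21 immediate early genes 8 rose and 2 fell at 12 h (5 and 5 on TPM), and 0 passed at 1 day. Of 18 hepatocyte transcription factors 9 rose and 3 fell at 12 h (7 and 4 on TPM), and 0 passed at 1 day.

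Of 21 hepatocyte markers 14 rose and 2 fell at 12 h (10 and 3 on TPM), and 1 rose and 2 fell at 1 day. Lymphocyte markers summed to 12.7 to 24.2 CPM in the 12 h sham and 4.02 to 5.31 CPM in the 12 h MI livers, and to 6.05 to 13.1 and 3.46 to 4.50 CPM at 1 day. Monocyte, cholangiocyte, platelet and erythroid markers and those of muscle, fat and pancreas had 3 to 7 members tested each and 0 to 1 passing at 1 day. The mitochondrially encoded genes, which the 12 h experiment does not list, summed to 72737 to 88942 CPM in the LC + sham and 103125 to 222355 CPM in the LC + MI livers.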
